A study of Mus musculus with 48 samples.

Results

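Livers of 12-month C57BL/6 mice were profiled by ONE-seq, and the comparison described here is that of RNA captured and recovered without the NudC enzyme (NudC- enrichment) with the input RNA of the same arm (NudC- input). ONE-seq labels the NAD cap of RNA with biotin through the enzyme ADPRC and the biotin reagent HEEB, and captures the labelled RNA on streptavidin. All libraries went through this labelling. By the methods of the study, captured RNA was displaced from the beads with biotin and then treated with NudC. RNA that stayed biotinylated was bound to streptavidin again, and the RNA left in solution was sequenced. The NudC- arm received a mock treatment instead, whose steps the methods do not detail. RNA recovered without cleavage of the cap is therefore included. Each arm had 2 input and 2 enrichment libraries of polyA-selected RNA, 4 of the 48 libraries of the series being NudC-. Of 55335 genes listed in the count table, 17984 had zeros in no more than 25% of the 4 NudC- libraries (at most 1 library) and are the genes described here. The age of 12 months comes from the methods of the study, and neither the labels nor the methods say whether the 2 libraries of a group came from separate animals. The p-values below therefore measure the spread between these libraries only.

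Most mRNAs of animals begin with an m7G cap, which protects them and recruits the translation machinery. Some begin instead with NAD, a redox cofactor that contains an adenine nucleotide and can be used in place of ATP to start transcription. NudC, a bacterial Nudix hydrolase, cuts the pyrophosphate of the NAD cap and not the triphosphate bridge of m7G. The comparison without NudC addresses what labelling, capture and mock elution recover together without this cleavage.

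The 4 libraries held between 7242321 and 8725646 read pairs in genes. A floor of 3 counts corresponded to 0.294 to 0.477 cpm, the counts scaled to a common library size with edgeR's TMM factors. Both inputs had liver RNA as labelled. The 10 hepatocyte markers summed to 76800 and 76810 cpm, whereas the markers of Kupffer cells, endothelium and stellate cells each summed to between 262 and 424 cpm. The inputs were not alike for every gene. Of 9229 genes with at least 100 summed input counts, 488 differed at least 2-fold between them. Enrichment library 2 stood apart in 7 loci that resemble ribosomal RNA or collect its reads, such as Lars2 and Mir6236. These took 3.89% of its counts, against 0.741% in enrichment library 1 and 0.780% and 1.08% in the inputs. Genes of the mitochondrial genome, 37 in the table, had 0 counts in these libraries. Same-numbered input and enrichment libraries deviated together from their group means, with a correlation of 0.482 across genes. By the protocol the input was set aside from the labelled RNA.

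Enrichment without NudC changed a large share of the transcriptome in both directions. A gene was called where it changed 2-fold or more with adjusted p below 0.05 by edgeR's quasi-likelihood test, blocked by replicate number. By this rule 2330 genes (13.0%) were higher in the enrichment and 1858 (10.3%) were lower. The calls were made from these same 2 pairs, so agreement in direction among called genes was largely set by the call and is given as a description. Of the genes called higher, 2312 were above their input in both pairs and 1931 reached 2-fold in both. Of those called lower, 1855 were below it in both pairs and 1100 reached 2-fold in both. Of 2286 genes with a zero in 1 library, 99 were called higher and 41 lower. Across all genes the log2 ratios of the pairs correlated at 0.678, as a description. Without the block, 1609 genes were called higher and 967 lower. Among genes with an adjusted p under 0.05, 46.0% were higher with TMM scaling. This share was 60.3% without the block and 18.9% when libraries were scaled by their totals alone, which moved the median log2 fold change of all genes from -0.11 to -0.81. Directions of small changes thus depend on the scaling.

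**Figure D1:**
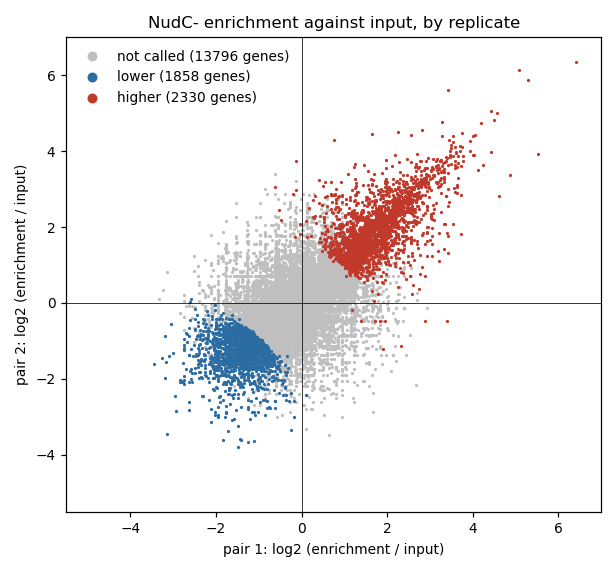
Each point is 1 of 17984 genes, with the log2 ratio of enrichment to input in pair 1 on the x axis and in pair 2 on the y axis. The 2330 genes called higher (red) and the 1858 called lower (blue) lie mostly in the corners where both pairs have the same sign.

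The genes that rose most had mostly short transcripts and came from several functions. Among protein-coding genes with at least 100 mean counts, Gm10800, a predicted gene with satellite-like repeats whose read assignment is uncertain, led with 2.73 and 4.60 cpm in the inputs and 252 and 392.4 cpm in the enrichments. Wfdc17, a secreted whey acidic protein of phagocytes, had 5.23 and 14.99 cpm in the inputs and 129 and 491 cpm in the enrichments, a log2 fold change of 4.86 (SE 0.15). Lst1, a leukocyte transcript, had 1.07 and 2.55 cpm against 15.2 and 58.5 cpm. Every enrichment library of these genes was above every input library, though genes were listed here only where both pairs rose. Rps27l, which encodes a ribosomal protein paralogue, went from 148 and 146 cpm to 2466 and 3120 cpm. Ndufa4, a subunit associated with cytochrome oxidase, went from 252 and 208 cpm to 4071 and 4424 cpm, a log2 fold change of 4.22 (SE 0.12). The 4 values of these genes left a wide gap between input and enrichment. Plac8 (log2 fold change 4.20), Slirp, a mitochondrial RNA-binding protein (4.01), and Leap2, a liver peptide that binds the ghrelin receptor (3.97), completed the 8 highest.

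The genes that fell most had long transcripts. Pank3, a pantothenate kinase of coenzyme A synthesis, had 39.2 and 31.9 cpm in the inputs and 4.09 and 7.95 cpm in the enrichments, a log2 fold change of -2.55 (SE 0.22). Bche, butyrylcholinesterase, had 50.4 and 54.7 cpm against 6.97 and 12.7 cpm. Uhmk1 (-2.43), the glycosyltransferase gene C1galt1 (-2.23), the calpain gene Capn7 (-2.22), the deubiquitinase gene Usp22 (-2.20), Matr3 of the nuclear matrix (-2.18) and Nr1d2, a clock repressor (-2.15), followed. The longest annotated transcripts of these 8 genes ran from 4434 to 7864 nt, against 415 to 2701 nt for the 8 highest. All 4 libraries of Pank3 and of Bche separated, with no input value within the range of the enrichments. Genes were listed here only where both pairs fell.

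Because NAD takes the place of an initiating adenosine, the annotated start sites of such genes are shown. Windows of 15 bases before and 15 from the start site were taken from RefSeq (GRCm38.p6) for those of the 8 highest and 8 lowest genes with a single listed start, and for the 2 highest of respiratory complexes II to IV, Cox7b and Uqcr10, with the start base in capitals.
Wfdc17 (chr11:83704041-83704070, plus strand): ctttactgaggctatAaattatttcatgag
Cox7b (chrX:106015685-106015714, plus strand): cctaaatctcgcgacAtctcaccaattctc
Uqcr10 (chr11:4704330-4704359, minus strand): aagacattgggttctAcgcaagcgcagtgg
Slirp (chr12:87443881-87443910, plus strand): ggttcttccggggtcAcgactccagggttt
Ndufa4 (chr6:11907436-11907465, minus strand): gtcctgggtgactttGgacgtccgctcagc
Pank3 (chr11:35769480-35769509, plus strand): gagcatctgccgcagGagagtggagcctca
Bche (chr3:73708401-73708430, minus strand): cccgccccgcccctcCttctctcctgaagc
C1galt1 (chr6:7845209-7845238, plus strand): tgcccgccgccccgcCccgggcctccgcgc
Capn7 (chr14:31336623-31336652, plus strand): ctgcgcaatgcggctGatgggcggagcaag
Nr1d2 (chr14:18239092-18239121, minus strand): gagcgggagagtcgaGgagaggaggagcgg
The annotated start base was A in Cox7b, Uqcr10, Slirp and Wfdc17 and G in Ndufa4. In these genes that fell it was not A. Over 8739 protein-coding genes with a single start, the differences were small. A gene starting with A was called higher in 12.7% of 2566 cases, against 11.2% of 1329 with C, 11.5% of 4008 with G and 13.2% of 836 with T. A was the start base of 31.2% of the genes called higher, of 29.4% of all these genes and of 24.9% of those called lower. These are annotated starts, and the 5' ends of the captured RNA were not measured by gene counts.

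Transcript length ordered the enrichment of protein-coding genes. These genes were divided into 10 equal bins by their longest annotated transcript. Gene counts do not show which isoform was present in liver, and it can be shorter than this. In the bin with the shortest transcripts (114 to 1386 nt), 732 of 1399 genes rose (52.3%) and 8 fell, with a median log2 fold change of 1.29. In the bin with the longest (from 6746 nt), 29 of 1397 rose (2.08%) and 394 fell (28.2%), with a median of -0.72. The medians fell at each step between them. The Spearman correlation of length with the log2 fold change was -0.51 across 13981 genes, a description over genes that share the same libraries. Input level gave a weaker ordering, with a Spearman correlation of -0.086. The median input level was 8.69 cpm in the shortest bin and 11.2 cpm in the longest. Within each of 5 bins of genes by input level, the shortest bin had the highest share of calls, from 18.3% at the lowest input level to 73.7% at the highest. GC content gave a weaker ordering (0.11), and the share of genes that fell declined from 22.2% in the bin with the lowest GC to 3.36% in the bin with the highest.

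**Figure D2:**
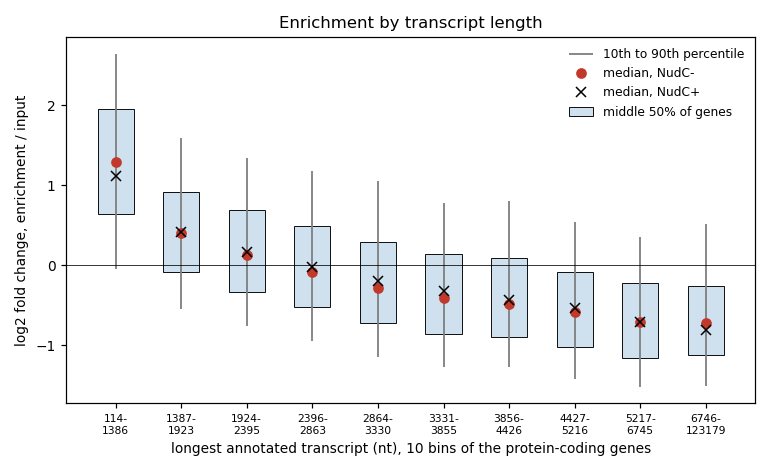
Protein-coding genes in 10 bins by their longest annotated transcript (x axis, nt), with the log2 fold change of enrichment against input on the y axis. Boxes hold the middle 50% of genes and lines run from the 10th to the 90th percentile in NudC-, and the NudC- median (red) falls from 1.29 to -0.72, with the NudC+ median (cross) beside it.

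The length of the longest annotated transcript alone did not place every gene. Of 724 genes in the shortest bin with at least 100 mean counts, 524 (72.4%) rose, 0 were called lower and 17 had a log2 fold change below 0. The lowest of these, named after their values were seen, were Clec2d (-0.84), the alpha-1 antitrypsin gene Serpina1c (-0.83), Zdhhc4 (-0.64) and the small GTPase gene Arf5 (-0.52), each with an adjusted p under 0.05. Hp, haptoglobin, with a transcript of 1345 nt, had 5217 and 4642 cpm in the inputs and 6183 and 5488 cpm in the enrichments, a log2 fold change of 0.24 that turned to -0.45 with library totals alone. Conversely, 15 genes of the longest bin with at least 100 mean counts rose. Of these, named likewise, Son, an RNA-splicing cofactor, had a log2 fold change of 3.09, the kinase gene Atm 3.74, Naa15 of the N-terminal acetylation complex 2.61 and Ebpl 1.29. Reads of 5 of the 15 could be shared with an overlapping protein-coding gene, as for Son with Donson, whose own log2 fold change was -0.19. Among the other partners, Lgals8 (with Heatr1) had -0.20, Prpf39 (with Fkbp3) -1.37 and Xrcc4 (with Tmem167) 1.93. The part of shared reads in these rises was not tested. In the shortest bin, 64.7% of genes with 3 exons rose, against 33.3% of 105 genes with 1 exon and 33.3% of 102 with more than 8.

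Gene groups were then compared with all 17984 genes, of which 13.0% rose and 10.3% fell, with a median log2 fold change of -0.11. The groups with a median above 0 under TMM that turned below 0 with library totals alone were translation initiation and elongation factors, Mediator, cytochrome P450 enzymes, plasma proteins, amino acid enzymes and NAD enzymes. The other 14 groups kept the sign of their median. Counts moved with this scaling too, to 16 higher for the large ribosomal subunit, 17 lower for nucleoporins, 20 lower for collagens and laminins and 25 lower for plasma proteins. Without the replicate block, fewer calls were left among cytochrome P450 enzymes (3 higher, 0 lower), amino acid enzymes (3 higher), NAD enzymes (2 higher) and collagens (2 lower), and the calls lower among Mediator subunits and snoRNA hosts fell to 0. The called genes Trf, Cps1, Nnmt, Tdo2, Cyp2c70 and Med14, described below, also lost their calls without the block.

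Ribosomal protein mRNAs, which build the ribosome and are among the shortest of the cell, had many members that rose. Of 48 measured proteins of the large subunit 30 rose and 0 fell (median log2 fold change 1.43), and of 32 of the small subunit 22 rose and 0 fell (1.75). Rpl32 had 175 and 221 cpm in the inputs and 1481 and 2550 cpm in the enrichments, a log2 fold change of 3.31. Rpl34 reached 3.04 and Rps27a, a ubiquitin fusion, 3.60. Rpl13 had 8.20 and 11.8 cpm in the inputs and 5.91 and 7.32 cpm in the enrichments (-0.58, adjusted p = 0.0801 by edgeR). Rpl15 stayed near its input, with 21.9 and 16.7 cpm against 22.0 and 18.4 cpm. Its inputs and enrichments overlapped. Many of these genes have near-identical pseudogenes, so their counts depend on how shared reads were assigned. Of 14 snoRNA host genes, whose spliced RNA is largely noncoding, 8 rose and 1 fell (median 1.56), led by Snhg8 (2.62) and Snhg6 (2.49).

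Factors that work on the ribosome had a smaller share of genes called higher than the ribosomal proteins. Of 54 translation initiation factors 7 rose (13.0%) and 4 fell (7.41%), near the shares over all genes of 13.0% and 10.3% (median 0.15). Eif2s2, the beta subunit of eIF2, went from 46.7 and 57.1 cpm to 206 and 547 cpm, whereas Eif4g2, with a transcript of 7995 nt, went from 249 and 203 cpm to 74.3 and 70.6 cpm. Of 12 elongation factors 3 rose and 1 fell. The nucleotide exchange subunit gene Eef1b2 had a log2 fold change of 1.84 and the translocase gene Eef2 one of -1.12.

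The respiratory complexes had the highest medians of the 21 groups. In the respiratory chain, 32 of 37 complex I subunits rose and 0 fell (median 2.10), Ndufa4, counted here by its name, being the highest. The 24 members in the shortest length bin all rose, and 8 of the 13 with a longer annotated transcript did. Ndufb2 went from 9.03 and 9.40 cpm to 111 and 128 cpm. Ndufs1, the largest subunit of the NADH-oxidising arm, had 61.1 and 45.4 cpm in the inputs and 38.8 and 29.3 cpm in the enrichments (-0.65). Of 32 subunits and assembly proteins of complexes II to IV, 21 rose and 0 fell (2.34). Cox7b had 126 and 120 cpm against 1694 and 2077 cpm, and Uqcr10 of complex III 125 and 116 cpm against 1516 and 2003 cpm. Sdha, the flavoprotein of complex II, had 371 and 235 cpm against 228 and 132 cpm.

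Of 18 subunits of ATP synthase, 12 rose and 0 fell (median 1.74). The stalk gene Atp5j went from 212 and 166 cpm to 2324 and 2685 cpm. The catalytic beta subunit Atp5b had 838 and 572 cpm in the inputs and 1087 and 521 cpm in the enrichments, and the alpha subunit Atp5a1 842 and 557 cpm against 936 and 545 cpm. For both the groups overlapped. Of 77 mitochondrial ribosomal proteins 44 rose and 0 fell (1.15), with Mrps18c at 3.85 and Mrps27 at -0.74.

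**Figure D3:**
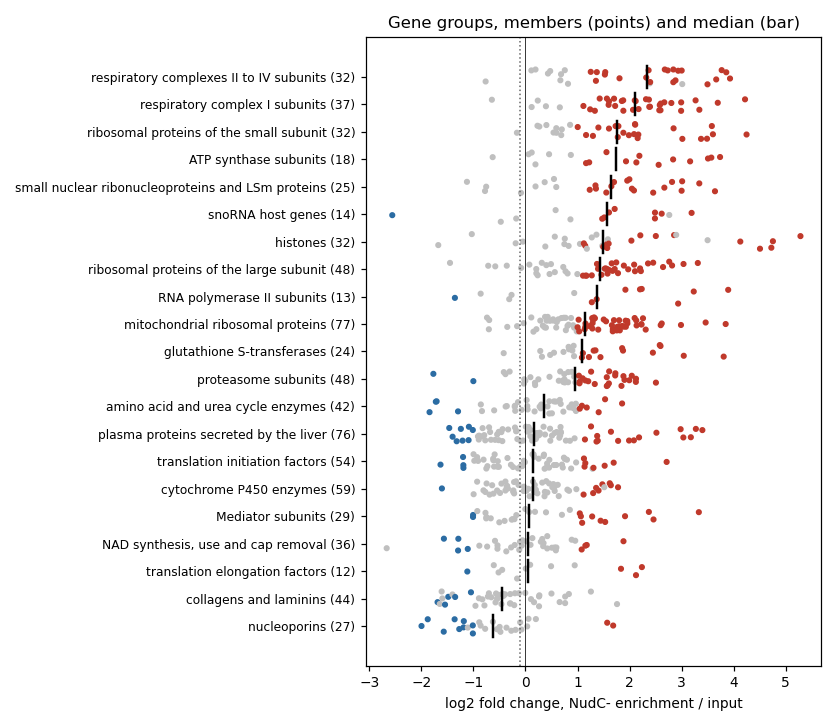
Log2 fold change of each measured member (points, red called higher, blue called lower) of 21 gene groups, with the number of members in brackets and the median as a bar. The dotted line marks the median of all genes, -0.11, and the medians run from 2.34 for complexes II to IV to -0.63 for nucleoporins.

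Large nuclear and cytoplasmic complexes held members of both directions. Of 48 proteasome subunits 23 rose and 2 fell (median 0.95). Psma1 of the core ring had 70.5 and 53.5 cpm in the inputs and 414 and 295 cpm in the enrichments, whereas Psme4, the large proteasome activator with a transcript of 6491 nt, had 50.6 and 34.0 cpm against 12.0 and 12.4 cpm. Of 13 RNA polymerase II subunits 8 rose and 1 fell (1.37). The small subunit Polr2i had a log2 fold change of 3.23, and the second-largest subunit Polr2b one of -1.36. Of 29 Mediator subunits, which connect activators with the polymerase, 10 rose and 2 fell (0.07). Both calls lower were also lost with DESeq2, with its size factors and under either other filter on low counts. Med21 went from 11.5 and 9.99 cpm to 139 and 83.7 cpm, and Med14 from 9.86 and 8.33 cpm to 3.79 and 5.25 cpm.

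Of 25 small nuclear ribonucleoproteins and LSm proteins, which bind the spliceosomal RNAs, 17 rose and 0 fell (median 1.65), with Snrpf at 3.34 and Lsm14a at -0.78. Of 32 histone genes measured of 101 in the table, 15 rose and 0 fell (1.49). The replacement histone gene H3f3a had 74.3 and 65.5 cpm against 327 and 318 cpm. Nucleoporins, the proteins of the nuclear pore, went the other way. Of 27, 2 rose and 9 fell (-0.63), with Sec13 at 1.57 and Nup98 at -1.57. Of 44 collagens and laminins, the long transcripts of the extracellular matrix, 0 rose and 5 fell (-0.45), with Col14a1 at -1.69. The share that fell, 11.4%, was near the 10.3% of all genes.

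**Figure D4:**
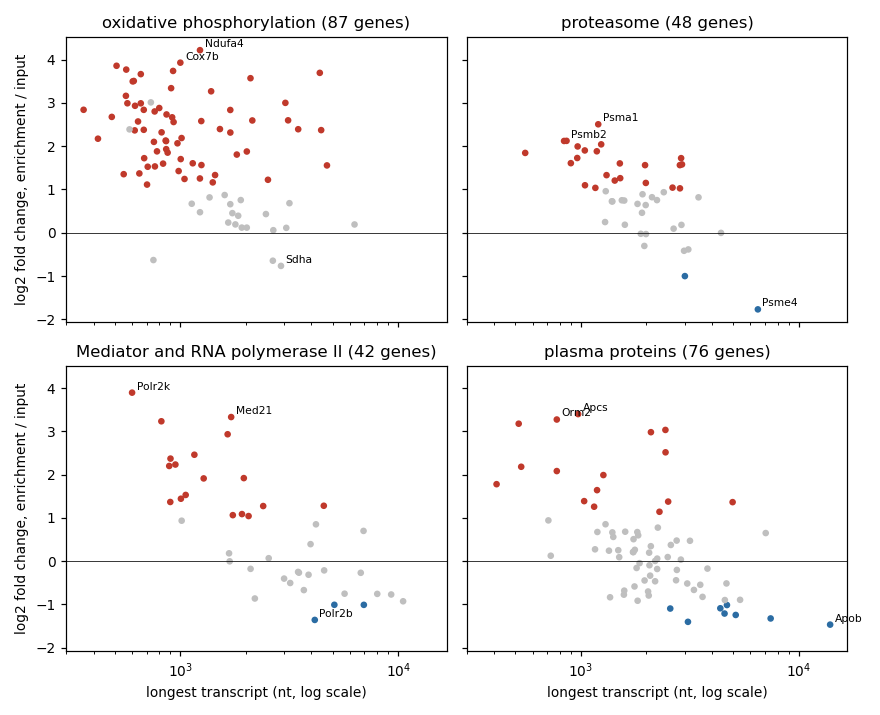
Log2 fold change against the longest annotated transcript (nt, log scale) for the members of 4 sets of groups, coloured as called higher (red), lower (blue) or not called (grey). Within each set the members called higher lie mostly to the left of those called lower, from Polr2k and Polr2i to Polr2b and from Apoa2 and Apcs to Apob.

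Transcripts of hepatocyte function were split. Of 76 plasma proteins 16 rose (21.05%) and 8 fell (10.5%, near the 10.3% of all genes), with a median of 0.16. Apoa2, a high-density lipoprotein component and the most abundant of those that rose, went from 9305 and 11126 cpm to 72558 and 115804 cpm, a log2 fold change of 3.18 (SE 0.09). Apoa1 rose by 1.39, the thyroxine carrier gene Ttr by 1.64, Apcs, serum amyloid P, by 3.40 and the acute-phase gene Orm2 by 3.28 on the log2 scale. Albumin, Alb, had 46583 and 46646 cpm in the inputs and 33227 and 24824 cpm in the enrichments (-0.70). Trf, transferrin, fell by 1.09, Itih2 fell by 1.40, and Apob, with a transcript of 13934 nt, fell by 1.47. The 4 libraries of Apoa2 and of Alb separated by group in opposite directions. Apoe was higher by 0.56 with TMM scaling and lower (-0.14) with library totals alone.

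Of 59 cytochrome P450 enzymes, which oxidise drugs and steroids, 8 rose (13.6%, near the 13.0% of all genes) and 1 fell (median 0.14). Cyp3a11 had 991 and 835 cpm in the inputs and 3836 and 2539 cpm in the enrichments (1.78), and Cyp2c68 reached 1.62. Cyp2e1, one of the most abundant, had 7837 and 8364 cpm against 8275 and 7546 cpm. Of 24 glutathione S-transferases 13 rose and 0 fell (1.09). The microsomal Mgst1 went from 3509 and 2235 cpm to 27206 and 19533 cpm (3.04), and Mgst3 reached 3.81. Of 42 amino acid and urea cycle enzymes 6 rose (14.3%) and 4 fell (9.52%), near the shares over all genes (0.36). Cdo1, cysteine dioxygenase, reached 1.86, whereas Glud1, glutamate dehydrogenase, had 817 and 559 cpm against 237 and 150 cpm (-1.84), and Cps1, which starts the urea cycle, 1701 and 767 cpm against 486 and 246 cpm (-1.72).

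Of 36 genes of NAD synthesis, use and cap removal, 4 rose and 4 fell (11.1% each, median 0.06), close to the shares over all genes. Nnmt, which methylates nicotinamide, had 199 and 80.5 cpm in the inputs and 720 and 303 cpm in the enrichments (1.88), and Tdo2, the entry to NAD synthesis from tryptophan, reached 1.18. The mitochondrial NAD kinase gene Nadk2 (-1.30) and the exonuclease gene Xrn1 (-1.29) fell. Nudt12, a NAD cap hydrolase, had 33.4 and 26.0 cpm against 26.4 and 13.8 cpm, and Dxo, a deNADding enzyme, 28.5 and 29.9 cpm against 37.6 and 36.3 cpm. Neither was called, and both were named after their values were seen.

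Several genes that the study measured singly for NAD capping were already higher without NudC. The study's own measurements were by qRT-PCR in 2-month liver, after NudC elution or capture on boronic acid beads. Fgb and Serpina1e were its examples of genes not identified by ONE-seq, and neither was enriched on those beads. Prxl2b, listed as Fam213b in the annotation used, had 24.01 and 18.1 cpm in the inputs and 181 and 195 cpm in the enrichments (log2 fold change 3.17, SE 0.14). Atp5k, a subunit of ATP synthase, went from 79.3 and 68.8 cpm to 521 and 817 cpm (3.16). Akr1c13, an aldo-keto reductase, reached 2.18, Ufc1, the conjugating enzyme for UFM1, 1.99, and Cyp2c70, a bile acid hydroxylase, 1.48, the last with an adjusted p of 0.2 by edgeR without the block. In these genes both enrichments were above both inputs. Med17 did not separate, with 9.98 and 14.0 cpm in the inputs and 19.1 and 12.6 cpm in the enrichments (0.39, adjusted p = 0.163 by edgeR's quasi-likelihood test, and -0.30 with library totals alone). It had -0.19 without NudC- replicate 1 and 0.94 without NudC- replicate 2. Fgb, fibrinogen beta, had 2925 and 2758 cpm against 2740 and 2319 cpm (-0.17, adjusted p = 0.165). Serpina1e, an alpha-1 antitrypsin gene, had 2203 and 105 cpm in the inputs and 1287 and 61.9 cpm in the enrichments. The inputs thus differed far more than the pairs, whose log2 ratios were -0.78 and -0.77.

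Pseudogenes and lincRNAs rose more often than the 13.0% of all genes, as a description. Of 1563 pseudogenes 420 rose (26.9%) and 35 fell, with a median length of 645 nt. Of 533 lincRNAs 111 rose (20.8%), and of 676 antisense genes 90 rose (13.3%, near the 13.0% of all genes). Of the protein-coding genes in the shortest length bin, 52.3% rose, above the share of pseudogenes. In that bin the share was 18.3% at the lowest input level and 53.1% at the next. The median input was 0.867 cpm for pseudogenes and 0.612 cpm for lincRNAs. The count floor corresponded to 0.294 to 0.477 cpm, so many of these values rest on few counts. Classes were not compared at equal length and input level. The values of pseudogenes and antisense genes depend on how reads shared with the parent or opposite gene were assigned, and strand was not stated to be used. Among those with at least 100 mean counts, Ndufb1-ps, named as a pseudogene of a complex I subunit and annotated as a noncoding RNA of a bidirectional promoter, had 46.7 and 38.5 cpm in the inputs and 1004 and 1290 cpm in the enrichments (4.76). Next were the processed pseudogenes Gm14706 (4.56) and Gm11518 (4.41). AC117816.1 (-1.70), Gm44250 (-1.65) and the long noncoding RNA Tug1 (-1.56) were lowest.

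The NudC+ arm of the same experiment has its own inputs. Of the 17984 genes, 2122 (11.8%) were called higher and 1898 (10.6%) lower there. The genes called higher in both arms numbered 1759, which is 75.5% of the NudC- calls and 82.9% of the NudC+ calls, and 1 gene was called in opposite directions. The length pattern was present in both arms, with NudC+ medians of 1.12 in the shortest bin and -0.81 in the longest. The test of the difference in enrichment between the arms called 130 genes (0.723%) at an adjusted p under 0.05, of which 110 (0.612%) were higher in NudC- and 20 (0.111%) in NudC+. Of these 110, 100 were also called higher in the NudC- arm, and their median transcript length was 928 nt. Apoa2 (3.18 in NudC- against 2.60 in NudC+, difference 0.58, SE 0.11), Rps27l (4.25 against 3.33), Ndufa4 (4.22 against 3.31) and Wfdc17 (4.86 against 3.37) were among them. Without the replicate block, 0 genes differed by edgeR's adjusted p and 247 had an unadjusted p under 0.05, and DESeq2 without the block also called 0.

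The enrichment was also measured with NudC in 2-month, 18-month and spike-in libraries, which share no library with those described here. The spike-in libraries were likewise of 18-month liver, its RNA mixed with NAD-capped and m7G-capped spike-in RNA in different ratios. Of 15162 genes tested in both, 2231 were called higher in NudC- and 2005 in 2-month liver. The 980 genes called in both were 43.9% of the former and 48.9% of the latter. In 18-month liver 811 were shared (36.4% and 46.0%), and in the spike-in libraries 905 (41.3% and 57.5%). Opposite calls among the genes higher in NudC- numbered 28, 40 and 12. Over all genes tested, 13.1%, 11.5% and 10.9% were called higher in the 3 sets. The shortest bin had 31.3%, 23.2% and 30.1% of its genes called higher in these sets, against 58.0% to 59.1% of the same genes in NudC-. In 18-month liver the next bin, at 25.9%, was above the shortest.

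The 30 of 48 large-subunit genes called higher in NudC- compared with 1 in 2-month liver, 0 in 18-month liver and 0 in the spike-in libraries, with medians of 0.26, -0.07 and 0.28 there. The 22 of 32 small-subunit genes compared with 5, 2 and 2, with medians of -0.02, -0.15 and 0.18. Rpl32 had a log2 fold change of 0.67 in 2-month and 0.26 in 18-month liver. Of 37 complex I subunits, 32 were called higher in NudC-, 31 in NudC+, 16 in 2-month and 11 in 18-month liver. Conversely, 18 amino acid enzymes and 19 cytochrome P450 enzymes were called higher in 2-month liver, against 6 and 8 in NudC-. Med17 had 2.50 in 2-month and 2.35 in 18-month liver against 0.39 in NudC-. In the NudC+ arm, of the same age and experiment as NudC-, 25 large-subunit and 19 small-subunit ribosomal protein genes, 7 cytochrome P450 enzymes and 5 amino acid enzymes were called higher, and Med17 had 0.41. Age and experiment differ together between the 12-month libraries and the other sets and cannot be told apart, and the differences were not tested.

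**Figure D5:**
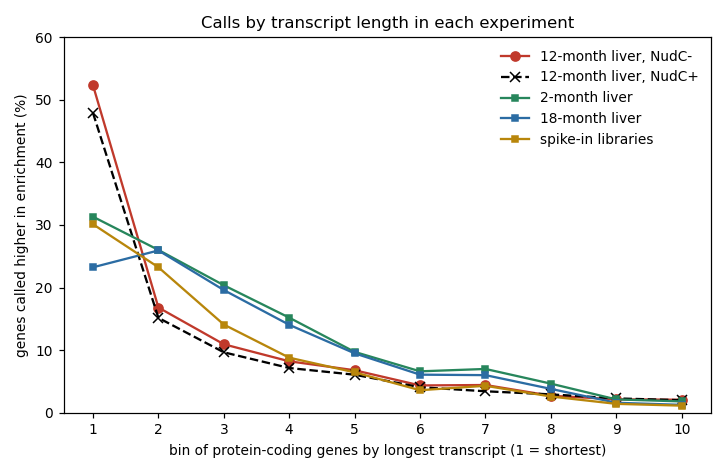
Share of protein-coding genes called higher in the enrichment (y axis, %) by bin of transcript length (x axis, 1 the shortest) in NudC- (red), NudC+ (black), 2-month, 18-month and spike-in libraries. All 5 lines are lowest among the longest transcripts, and NudC- starts highest, at 52.3%.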

How the data were processed

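The authors trimmed read pairs with Trim Galore, aligned them to GRCm38 with STAR and counted them per gene with featureCounts on Gencode M23, and they deposited these whole-number counts without normalization. Depths ranged from 7242321 to 8725646 counts over the NudC- libraries, which limits precision by counting error only. The members and gene lists were chosen with earlier results of these data known. Symbols, types, positions and transcript lengths came from Gencode M21 of the same build, in which 15 of the 17984 genes were not found. Start sites came from RefSeq.

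All 8 libraries of the experiment were fitted together in R 4.3.3 with edgeR 4.0.16 (TMM, glmQLFit, glmQLFTest). The replicate number was a block shared by both arms. By the protocol the input was set aside from the same labelled RNA, which pairs libraries within an arm only. Same-numbered libraries deviated together within NudC- (correlation 0.482) and NudC+ (0.536). Between the arms the correlation was 0.5805 for inputs and 0.4915 for enrichments, and the link between arms rests on these values. The fit left 3 residual degrees of freedom and shrank every gene to a shared spread, so no gene keeps a spread of its own. P-values are two-sided and adjusted by the Benjamini-Hochberg method over all genes. Genes were called at a change of 2-fold or more with adjusted p below 0.05. Standard errors are the log2 fold change divided by the root of F. Log2 ratios per pair used a prior count of 2. Libraries of the age and spike-in experiments were fitted with the same edgeR functions, with a separate term for each pair within a condition. The fits were tested on simulated data.

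Genes were named by rule: those the study measured singly, the 10 with most input counts, the 8 highest and 8 lowest protein-coding and 3 highest and 3 lowest other genes called in both pairs' shared direction and averaging 100 counts or more, the 2 highest and 2 lowest of each of 21 lists averaging 50 counts or more, and the 4 with the largest difference between arms each way. A gene that the rule would name is not reported here. Other names were chosen after their values were seen. Alternatives were DESeq2 1.42.0, other scalings and filters, no block, all 4 inputs, other sets of libraries and a test against a 2-fold change. Columns that matched no sample numbered 4 and were not used. Python 3.11.15, numpy 2.4.6, pandas 2.3.3, scipy 1.17.1 and matplotlib 3.10.9 were used.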

Additional observations from a re-analysis of the deposited data

Results flagged for a closer look

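Every gene was tested for unequal enrichment in the NudC- and NudC+ arms, and 130 differed at an adjusted p under 0.05 by edgeR's quasi-likelihood test. On the log2 scale, the fitted differences of NudC- minus NudC+ with the largest size were 3.83 for Gm10801, 3.71 for Gm10800 and 3.65 for Gm21738, predicted genes with satellite-like repeats, and 1.80 for Mir6236, a locus with ribosomal RNA sequence. For Gm10801 and Gm21738 the NudC- inputs held 2 to 4 counts, so their fitted values depend on the prior count. In NudC+ the log2 ratio of Gm10800 was 1.45 in pair 1 and 5.15 in pair 2, against 6.40 and 6.34 in NudC-. Mir6236 had 1.45 and 3.63 in the NudC- pairs.

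In the other direction the largest differences were -1.77 for Fbxl19, a reader of CpG islands, -1.44 for Exoc3l2, -1.32 for Hexdc, a hexosaminidase, and -1.23 for Asb6. Fbxl19 had 9.15 and 8.91 cpm in the NudC- inputs and 3.34 and 4.61 cpm in the enrichments. The enrichment was thus below the input in NudC- (-1.19) and above it in NudC+ (0.57), in both pairs of each arm. GC content was 60.3%, 62.0%, 51.6% and 56.3% in these genes. Over protein-coding genes, GC content correlated with enrichment at a Spearman rho of 0.11 without NudC and 0.25 with it, as a description, and its part in these differences was not tested.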

How the results depend on the processing

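Scaling, the replicate block and the test moved the counts most. Against 2330 higher and 1858 lower, library totals alone gave 1146 and 5858, and a test against a 2-fold change 1427 and 406. Without the block 1609 were higher and 967 lower, with the DESeq2 Wald test 1181 were lower, and DESeq2 without the block, added after seeing the data, gave 771 lower. The other alternatives run gave 1928 to 2579 higher and 1404 to 1949 lower. Without NudC- replicate 1 or 2, which leaves that arm 1 pair assumed to vary like the NudC+ pairs, 2093 and 1928 were higher and 1721 and 1783 lower. Of the genes called higher, 1605 were shared with the fit without the block and 1146 with library totals alone.

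The 130 differences between arms became 0 without the block by either tool, 0 with a mean of at least 10 counts, 41 with library totals alone, and 96 and 8 without NudC- replicate 1 and 2. They rest on the block and on NudC- replicate 2, and their unadjusted p was under 0.05 in 247 genes without the block, in 120 by DESeq2 without it and in 1241 with the count minimum. Genes called in NudC- and elsewhere with library totals alone numbered 313 in 2-month, 220 in 18-month and 236 in spike-in libraries.

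Directions that turned with library totals alone, on the log2 scale, were those of Apoe (-0.14), Ahsg (-0.44), Hp (-0.45), Rpl15 (-0.62), Rpsa (-0.30), Ndufa10 (-0.58), Uqcc1 (-0.58), Atp5a1 (-0.64), Atp5b (-0.58), H2afx (-0.13), Gstm4 (-0.38), Col5a3 (-0.44), Nup88 (-0.50) and Med17 (-0.30). Uncalled values near 0 also changed sign in Atp5a1, Atp5b, Ndufa10, Uqcc1 and Med17 (-0.19) without NudC- replicate 1, in Cyp2e1 and Snhg17 without replicate 2, and in Cyp2e1 with DESeq2 or its size factors. Of the named genes, 33 lost their side of the threshold without the block, 12 did without NudC- replicate 1 and 12 without NudC- replicate 2. The cause was not tested. With 2 pairs per arm, the gene's own spread is not measured well, and values near 3 counts carry mostly counting error.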

Other observations

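Transcripts of blood cells were among those that rose. Of 5 red cell markers 4 rose (median log2 fold change 1.81), against 13.0% of all genes. Hbb-bs, a beta globin, had 85.0 and 20.96 cpm in the inputs and 449 and 105 cpm in the enrichments, and Alas2, the heme synthesis enzyme of red cells, with a transcript of 2037 nt, had 126 and 43.4 cpm against 104 and 28.6 cpm. Of 90 immunoglobulin segments 37 rose and 0 fell (41.1%, median 1.75), with a median length of 368 nt. Their median input level was 0.355 cpm, within the 0.294 to 0.477 cpm that corresponded to the count floor. The median of 1.75 thus rests largely on inputs of few counts, where values carry mostly counting error. Igkc, the kappa constant segment of 532 nt, had 43.1 and 191 cpm in the inputs and 141 and 616 cpm in the enrichments (1.69), whereas Ighm, the mu constant segment of 1698 nt, had 54.8 and 256 cpm against 60.6 and 229 cpm (-0.02). For Ighm the spread between the 2 inputs was larger than the change within either pair. These genes were named after their values were seen.

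Within 1 cell type the markers also differed. Over all genes 13.0% rose and 10.3% fell, and whether these small lists differ from such shares was not tested. Of 10 Kupffer cell markers 1 rose. C1qa, the complement chain with a transcript of 1040 nt, had 37.2 and 66.7 cpm in the inputs and 142 and 242 cpm in the enrichments (1.89). C1qb, with 1088 nt, had 31.5 and 46.6 cpm against 34.7 and 60.6 cpm (0.27), and Clec4f had a log2 fold change of 0.15. Of 10 sinusoidal endothelium markers 0 rose and 2 fell (median -0.55), of 10 stellate cell markers 1 rose and 2 fell, and of 10 hepatocyte markers 2 rose and 2 fell. Of 6 cholangiocyte markers measured 1 rose, of 7 lymphocyte markers 2 rose and of 3 neutrophil markers measured 2 rose, with 0 lower in these lists. In bulk RNA, fewer cells of a type and less RNA per cell cannot be told apart between the inputs. By the protocol each input was set aside from the labelled RNA, so enrichment against input is not a measure of cell numbers.

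Of 9 genes of chromosome Y, 0 rose and 2 fell, against 13.0% and 10.3% of all genes. Kdm5d, with a transcript of 7974 nt, had 9.15 and 9.11 cpm in the inputs and 2.43 and 5.25 cpm in the enrichments (-1.28), and Xist had 3.68 and 4.51 cpm in the inputs.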
